A study of Caenorhabditis elegans with 2 samples.

Results

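The peaks described here are 285 of the 4133 sites in the optimal peak list of an NHR-90 ChIP-seq experiment in Caenorhabditis elegans. Their summits lay in a window at the 5′ end of a noncoding gene or a pseudogene and in no such window of a protein-coding gene. Of the 285, 84 nevertheless lay inside the body of a coding gene. A window was drawn at the 5′ end of each annotated transcript, reaching 1000 bp upstream and 200 bp downstream. A peak was taken when its summit fell in the window of an ncRNA, microRNA, lincRNA, antisense RNA, rRNA or pseudogene and outside the windows of all protein-coding, tRNA, snRNA and snoRNA genes. Within the optimal list the choice used position alone, and the optimal list itself was made on signal and reproducibility. Of the other 3848 optimal peaks, 2722 had their summit in a protein-coding or small RNA window, 1066 in no window and 60 in the window of a piRNA gene alone.

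Both libraries came from 1 group, L1 larvae of strain OP483, hermaphrodites with the genotype unc-119(tm4063) III; wgIs483. The integrated transgene wgIs483 encodes NHR-90 with GFP and FLAG at its C terminus, and all animals carried it. Larvae were starved after bleaching to synchronise them and collected 6 hours after synchronisation as whole animals, and the labels name no treatment. Chromatin was sonicated and precipitated with an antibody against GFP, according to the sample description, although the antibody field of the labels reads nhr-90. The labels give 2 biological replicates. The authors' peaks were called with a control, but the control library was not analysed here. The comparisons below are with other peaks, and none is with an untagged strain. In whole larvae, strong binding in few cells and weak binding in many cells cannot be told apart.

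NHR-90 belongs to the nuclear hormone receptors, zinc-finger transcription factors that in this worm form an unusually large family, most of whose members have no known ligand. Genes that make no protein can carry promoters of their own: microRNA genes are transcribed into hairpins from which short RNAs are cut that pair with messengers through their seed, and structural RNAs such as the RNA of RNase P or of the signal recognition particle are parts of ribonucleoproteins. Most genes of the ncRNA biotype in the worm annotation are short transcripts without an assigned function, and pseudogenes are copies of genes that have lost their coding potential.

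The strongest of these peaks differed in the short motifs they held. The windows below hold the summit and 50 bases to each side of it, and read along the + strand of the RefSeq assembly WBcel235, whose chromosome lengths equal those of ce11. Capitals mark matches on either strand to GAGAGA (a GA repeat), GAGACGCAG (the motif known for the zinc-finger factor EOR-1), CACGTG (the E-box of basic helix-loop-helix factors), TGATAA (the site of GATA factors of the ELT family), AGGTCA (the half-site of many nuclear receptors), GCGCAGGG (part of the motif known from sites that recruit the dosage compensation complex to X), GTAAACA (a forkhead site) or TGACTCA (an AP-1 site). C18A11.13 is shown as the strongest peak, with GCGCAGGG once on each strand, and R160.11 as the only other one of the 285 with that motif. F07H5.5 is shown for the GA repeat, ZK829.13 for a GA repeat beside an E-box, and C26B2.12 for a pair of E-boxes. W06H8.16 is shown for the EOR-1 motif, ZK1290.22 as the strongest of the 285 with a TGATAA site, tts-1 for the forkhead site, and C30E1.9 as a strong peak with none of these.
C18A11.13, chrX:8036379-8036479: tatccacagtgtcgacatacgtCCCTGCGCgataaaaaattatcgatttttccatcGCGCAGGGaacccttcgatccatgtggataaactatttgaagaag
R160.11, chrX:4395592-4395692: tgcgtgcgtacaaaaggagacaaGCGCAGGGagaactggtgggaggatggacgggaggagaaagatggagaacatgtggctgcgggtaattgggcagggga
F07H5.5, chrII:8787538-8787638: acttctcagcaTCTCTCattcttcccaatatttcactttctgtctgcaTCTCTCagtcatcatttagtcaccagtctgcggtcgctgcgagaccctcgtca
ZK829.13, chrIV:11956454-11956554: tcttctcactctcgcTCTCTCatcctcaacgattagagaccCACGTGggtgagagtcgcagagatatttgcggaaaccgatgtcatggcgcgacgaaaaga
C26B2.12, chrIV:8028469-8028569: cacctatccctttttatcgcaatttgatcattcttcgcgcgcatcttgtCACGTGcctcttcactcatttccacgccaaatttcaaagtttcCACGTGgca
W06H8.16, chrV:6224600-6224700: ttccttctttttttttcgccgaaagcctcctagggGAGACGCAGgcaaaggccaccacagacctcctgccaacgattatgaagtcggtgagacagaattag
ZK1290.22, chrII:7528377-7528477: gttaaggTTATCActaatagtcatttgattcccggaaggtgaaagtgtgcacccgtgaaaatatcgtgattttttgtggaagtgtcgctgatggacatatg
tts-1, chrX:1504862-1504962: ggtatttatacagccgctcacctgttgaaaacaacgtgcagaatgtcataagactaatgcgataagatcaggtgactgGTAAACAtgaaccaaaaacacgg
C30E1.9, chrX:16929775-16929875: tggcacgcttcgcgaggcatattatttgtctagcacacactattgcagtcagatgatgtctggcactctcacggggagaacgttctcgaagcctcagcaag

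The values below are the authors' signal value of each peak, deposited without a stated scale. The signals of a replicate list and of the list made from both replicates are on different scales, so a peak is given by its value and its rank within each list. No read counts are used here, so the depth of the libraries and the counting error of a signal are unknown. The pooled list held 30000 candidates, and the optimal list is its 4133 strongest. The list of replicate 1 held 27854 candidates and that of replicate 2 held 26708. Percentages carry exact (Clopper-Pearson) 95% binomial intervals, which cover counting error over peaks and not the spread between animals.

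The 285 peaks were spread through the optimal list, somewhat below its middle. Their signal had a median of 112.3 with quartiles of 83.0 and 179.7 and ran from 69.5 to 1040.1, against a median of 124.6 with quartiles of 88.5 and 200.03 in the rest of the optimal list. Among the 413 strongest optimal peaks were 20 of them (7.02%, interval 4.34 to 10.6), against 10.2% of the rest, and 123 (43.2%, interval 37.3 to 49.1) were among the 2066 strongest, against 50.5% (48.9 to 52.1) of the rest. They resembled the 1066 peaks in no window, whose median signal was 109.0, more than the 2722 peaks in a protein-coding or small RNA window, whose median was 133.2.

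The share of candidate peaks that reached the optimal list was in between that of coding windows and that away from all windows. Of 2220 pooled candidates under the same positional rule, 285 were optimal (12.8%, interval 11.5 to 14.3), near the 13.8% of all 30000 candidates that were optimal. In protein-coding and small RNA windows 22.6% of the candidates were optimal, and in no window 7.25%. Counted by gene and including peaks shared with coding genes, 993 of 10467 genes of the 6 noncoding biotypes had an optimal summit in their window (9.49%, interval 8.93 to 10.1), against 14.0% of all genes except piRNAs. The share differed among the biotypes. It was 15.7% of microRNA genes (41 of 261, interval 11.5 to 20.7), 13.9% of lincRNA genes (27 of 194, interval 9.38 to 19.6), 11.2% of ncRNA genes (872 of 7764, interval 10.5 to 12.0), 6.00% of antisense RNA genes (6 of 100, interval 2.23 to 12.6) and 2.21% of pseudogenes (47 of 2128, interval 1.63 to 2.93). The microRNA and lincRNA shares lie within counting error of the 14.0%, while the ncRNA, antisense RNA and pseudogene shares lie below it. None of the 20 rRNA genes in the annotation had a summit in its window, which allows a share of up to 16.8% (upper limit of the interval).

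The 285 peaks touched 353 distinct noncoding genes and pseudogenes. An ncRNA gene was in reach of 242 of them (84.9%), a pseudogene of 26 (9.12%), a microRNA gene of 23 (8.07%), a lincRNA gene of 7 and an antisense RNA gene of 2, and some had several kinds in reach. A single gene was in reach of 209 peaks and a pair of genes of 57. After joining summits less than 1000 bp apart the peaks made 253 loci, of which 29 held 2 or more. Another optimal summit lay within 250 bp of 36 of them (12.6%, interval 9.01 to 17.1), against 6.60% (5.84 to 7.43) of the rest together. The nearest optimal summit was a median of 2172 bp away for the 285 and 2472 bp for peaks in no window. For peaks in protein-coding or small RNA windows it was 5491.5 bp away. The share within 250 bp was not computed for these classes apart, so close pairs are not shown to be particular to the 285. Close summits can share 1 peak interval, as 9 of the 285 did. Others, as at K08F11.7, have different but overlapping intervals that match the same candidate in each replicate. In both cases they are not independent sites, though each is counted as 1 peak here.

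Among unclassified ncRNA genes the strongest signal stood at C18A11.13, 89 bp long, with the summit 245 bp upstream of its 5′ end and 4884 bp upstream of the nearest coding 5′ end, that of xol-1, a switch gene of sex determination on X. The peak (chrX:8036123-8036904) had a signal of 1040.1 and rank 15 of 4133. Its signal was 552.6 in replicate 1 (rank 16) and 483.9 in replicate 2 (rank 17), so both replicates placed it among their 17 strongest.

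R03E9.7 followed, with a signal of 740.4 (rank 56, chrX:6743555-6744329) and replicate signals of 394.4 and 333.0. Its summit lay 229 bp upstream of the gene and 1692 bp downstream of the 5′ end of mdl-1, which encodes a MAD-like basic helix-loop-helix protein, and its window held an E-box. C30E1.9, a noncoding gene of 14770 bp, had a signal of 544.2 (rank 129, chrX:16929549-16930203) at a summit 89 bp upstream of its 5′ end, with 267.4 in replicate 1 and 266.4 in replicate 2. A weaker summit in the same interval, 113 bp downstream of that 5′ end, had a signal of 122.9, and both summits matched a single candidate in each replicate. The other unclassified ncRNA genes of the 20 strongest peaks, outside chromosome I, were C26B2.12 (437.8), H37A05.6 (424.1), ZK829.13 (422.5), C49F8.10 (418.3), K10H10.11 (414.7, with K10H10.14 also in reach), C10F3.15 (396.8), W06H8.16 (394.0, with W06H8.5 also in reach), K08F11.7 (341.3) and F09A5.11 (338.4). The summit of C26B2.12, 8 bp downstream of its 5′ end, fell in an intron of nhr-31, a nuclear receptor gene on the opposite strand, 903 bp downstream of a 5′ end of nhr-31.

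The remaining 3 strong peaks at unclassified ncRNA genes lay in a single coding gene on chromosome I. F16A11.7 and F16A11.9 are annotated at the same 191 bp (9382980 to 9383170) on opposite strands, in an intron of ppfr-1, which encodes a regulatory subunit of protein phosphatase 4. One summit fell on the 5′ end of F16A11.7 (signal 702.6, rank 64) and another 12 bp upstream of the 5′ end of F16A11.9 (568.7, rank 118), so each end of the pair carried a summit. Both matched the same candidate in each replicate (382.4 and 333.2). In the same host gene F16A11.13 had a summit 284 bp upstream of its 5′ end (338.3) and another 70 bp upstream (186.7), the second also in the window of the antisense RNA gene anr-20.

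**Figure D1:**
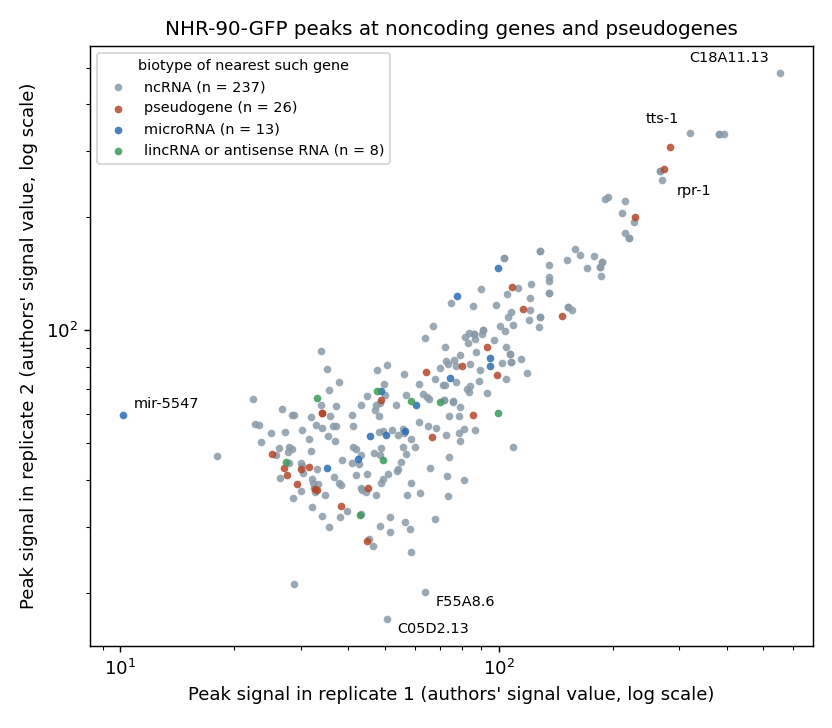
Signal of the 284 peaks with a candidate in both replicates, replicate 1 across and replicate 2 up, both on log scales, coloured by the biotype of the nearest noncoding gene or pseudogene. The strong peaks lie close to a line, C18A11.13 at 552.6 and 483.9, while mir-5547, F55A8.6 and C05D2.13 stand apart at weak signal.

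Of 11 named structural RNA genes, a list made with earlier results of these data known, 8 were bound (72.7%, interval 39.0 to 94.0), 7 of them by peaks of this kind, against 11.2% of ncRNA genes and 14.0% of all genes except piRNAs. Among the small RNA genes, 53.8% of tRNA, 39.3% of snoRNA and 30.2% of snRNA genes were bound. The tRNA and snoRNA shares lie within the interval of the list, so a high share was not particular to it. Of the 8, 4 are copies of 1 kind of RNA whose reads cannot be placed with certainty, so the 8 are not separate measurements. The long noncoding RNA tts-1, abundant in long-lived mutants, had the strongest (signal 652.0, rank 82, 71 bp upstream of its 5′ end), with 319.6 in replicate 1 and 334.6 in replicate 2, and F09E10.14 and F09E10.10 were in reach of the same summit. The RNase P RNA gene rpr-1, whose product trims the 5′ ends of tRNAs, had a signal of 522.1 at a summit 10 bp upstream of its 5′ end, in an intron of the Integrator subunit gene ints-8 on the opposite strand, with 270.5 in replicate 1 and 250.7 in replicate 2. The gene of the related RNase MRP RNA, mrpr-1, had a summit 3 bp upstream of its 5′ end with a signal of 325.2, but in the windows of pcrg-1 and E04F6.6 too, so it is not counted among the 285. These 3 summits thus sat less than 100 bp upstream of the start of the RNA, and all ranked 451 or better in both replicates.

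The long, largely double-stranded RNA gene rncs-1, known to rise in starved worms, had a peak 158 bp upstream (222.0, with 103.9 in replicate 1 and 99.8 in replicate 2) and a weaker one 723 bp upstream (103.8, with 50.1 and 67.4). Of the 5 genes for the RNA of the signal recognition particle, which brings nascent secretory proteins to the endoplasmic reticulum, 4 were bound. srpr-2.2 had a signal of 277.5 at 2 bp upstream of its 5′ end, with 136.2 in replicate 1 and 135.1 in replicate 2. The peaks of srpr-1.1 (117.6, with 56.2 and 76.4), srpr-2.1 (108.3, with 52.2 and 54.2) and srpr-1.2 (102.7, with 49.0 and 48.7) had their summits 71, 32 and 80 bp downstream, inside the gene. The gene srpr-1.1 is 98.3% identical to srpr-1.2 and srpr-2.1 is 99.0% identical to srpr-2.2, so reads inside these genes cannot be placed on one copy with certainty, and the values of the 4 copies are uncertain. The fifth copy, srpr-3, 81.9 to 82.6% identical to the others, had only a weak candidate (signal 19.98, rank 21127 of 30000), as had the Y RNA gene yrn-1 (20.7, rank 20204), and tts-2 had none. Of the 7 windows among the 285 that held TGACTCA, 3 belonged to srpr genes, where the match lies inside the RNA gene. The summit windows of srpr-2.2 and srpr-2.1 are shown for that match.
srpr-2.2, chrIII:5031660-5031760: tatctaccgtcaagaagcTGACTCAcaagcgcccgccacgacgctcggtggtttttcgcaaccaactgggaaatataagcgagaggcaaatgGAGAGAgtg
srpr-2.1, chrIII:5211202-5211302: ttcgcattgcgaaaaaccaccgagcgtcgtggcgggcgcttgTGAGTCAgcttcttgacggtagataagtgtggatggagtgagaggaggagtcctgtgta

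Of the 41 microRNA genes with an optimal summit in their window, 28 had it from 23 of these peaks. Several of them sit in clusters with 1 peak in reach and share a seed, bases 2 to 8 of the mature RNA, in capitals below. With the seed ACCCGUA, that of the mir-51 family, 5 of 6 annotated genes were bound, all by peaks of this kind: mir-54, mir-55 and mir-56 had 1 peak in their windows, mir-53 had 1, mir-52 had 3 and mir-51 had none. mir-44 and mir-45 share a seed on both arms, though mir-61 and mir-247, which carry the second of these seeds (GACUAGA), were not bound. The genes mir-73 and mir-74, with 1 peak in their windows, share GGCAAGA with 4 others that were not bound, and mir-75 shares UAAAGCU with mir-79. Mature RNAs of these seed groups, and of mir-80 and mir-58.1, whose seeds differ in their last base, read as follows in the RefSeq annotation.
mir-52, 5′ arm: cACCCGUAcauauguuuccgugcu
mir-53, 5′ arm: cACCCGUAcauuuguuuccgugcu
mir-54, 3′ arm: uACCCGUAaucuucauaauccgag
mir-55, 3′ arm: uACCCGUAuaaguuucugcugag
mir-56, 3′ arm: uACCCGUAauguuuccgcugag
mir-44, 3′ arm: uGACUAGAgacacauucagcu
mir-45, 3′ arm: uGACUAGAgacacauucagcu
mir-73, 3′ arm: uGGCAAGAuguaggcaguucagu
mir-74, 3′ arm: uGGCAAGAaauggcagucuaca
mir-75, 3′ arm: uUAAAGCUaccaaccggcuuca
mir-80, 3′ arm: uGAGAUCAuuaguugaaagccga
mir-58.1, 3′ arm: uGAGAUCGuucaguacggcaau

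The microRNA peaks were of middling strength, with a median signal of 114.5 and a range from 70.6 to 338.4, and 19 of the 23 (82.6%, interval 61.2 to 95.05) overlapped one of the 4133 strongest candidates of both replicates. The strongest lay upstream of the mir-54, mir-55 and mir-56 cluster (338.4, rank 404, chrX:13145124-13145535), 274, 444 and 581 bp upstream of the 3 hairpins, with 179.0 in replicate 1 and 157.6 in replicate 2. Its summit was nearer to the ncRNA gene F09A5.11 (97 bp upstream), and it fell in an intron of the coding gene F09A5.3 on the opposite strand. Its window held an E-box.

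mir-80, of the abundant mir-58 family, had a peak 220 bp upstream of its hairpin (241.0), and the replicates differed: 99.5 with rank 1057 in replicate 1 and 146.5 with rank 511 in replicate 2. mir-58.1 of the same family had 193.0, with 118.8 (rank 792) in replicate 1 and 77.2 (rank 1521) in replicate 2, so both genes changed order between replicates. mir-8196.1 had 206.7, with 77.7 in replicate 1 and 123.8 in replicate 2. The peak at mir-53 had 176.0 (94.8 and 80.5), and that upstream of mir-229, with its summit in an intron of gcn-1, 145.5 (74.6 and 74.5). The strongest of the 3 peaks at mir-52 had 170.6 (107.9 and 82.3) and lay 718 bp upstream of its hairpin, and the others, nearer to it, had 135.9 and 77.6. The windows of mir-80, mir-53 and mir-229 each held the GA repeat and are shown for it.
mir-80, chrIII:8865537-8865637: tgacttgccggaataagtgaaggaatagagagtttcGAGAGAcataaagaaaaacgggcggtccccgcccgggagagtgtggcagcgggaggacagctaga
mir-53, chrIV:11027807-11027907: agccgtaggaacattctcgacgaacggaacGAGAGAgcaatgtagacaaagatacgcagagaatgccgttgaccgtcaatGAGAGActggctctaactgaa
mir-229, chrIII:2172127-2172227: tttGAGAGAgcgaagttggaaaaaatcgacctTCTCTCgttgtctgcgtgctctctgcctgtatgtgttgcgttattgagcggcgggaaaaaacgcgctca

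Pseudogenes had the lowest bound share of the 5 biotypes with a bound gene, and 27 of the 47 were bound by these peaks, but a few of those were strong. F07H5.5 had a signal of 588.9 (rank 110, chrII:8787444-8787705), with 283.9 in replicate 1 and 307.0 in replicate 2, at a summit 182 bp upstream. R12C12.8 had 548.0 (rank 128, chrII:6061566-6061830), with 274.0 and 268.4, at 175 bp upstream, and K08F11.6 had 429.3, with 228.6 and 200.4, at 77 bp upstream. All 3 summits were intergenic, upstream of the pseudogene and at least 2894 bp from a coding 5′ end. The next were Y17D7C.3 (266.6) and a peak between arrd-21, named for arrestin-domain proteins, and T20D4.13 (234.5). Over the 26 pseudogene peaks the median signal was 107.6, and 14 (53.8%, interval 33.4 to 73.4) overlapped one of the 4133 strongest candidates of both replicates.

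By kind of pseudogene, 7 of 209 tRNA pseudogenes had an optimal summit (3.35%, interval 1.36 to 6.78), 3 of them from these peaks, Y43F8C.t6 (119.8), T21H8.t1 (74.2) and F57G12.t2 (72.9). Of 323 chemosensory receptor pseudogenes 2 were bound (0.619%, interval 0.0751 to 2.22), neither by a peak of this kind. Of 93 F-box and BTB-MATH pseudogenes 3 were bound, among them fbxa-33 (71.1), and of 14 nuclear receptor pseudogenes 1 was, nhr-151 (79.3, with 45.3 in replicate 1 and 38.0 in replicate 2). No pseudogene carried a histone symbol.

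The lincRNA and antisense peaks were few. The 7 lincRNA peaks ran from 71.7 to 161.9. The strongest was that of linc-105 (161.9), 732 bp upstream, with 99.4 in replicate 1 (rank 1060) and 60.3 in replicate 2 (rank 2154), followed by linc-54 (127.0, with 70.1 and 64.5) and linc-107 (119.0, with 47.8 and 69.0). The antisense RNA genes with a peak were anr-20 (186.7) and anr-58 (123.4, with 58.7 in replicate 1 and 65.0 in replicate 2).

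Summits lay close to the 5′ ends of the noncoding genes. The median distance was 96 bp upstream, with quartiles of 318 bp upstream and 29 bp downstream, and 187 of 285 (65.6%, interval 59.8 to 71.1) fell within 200 bp. In the 2410 peaks in a protein-coding window the median was 198 bp upstream of the nearest coding 5′ end, and 50.3% (48.3 to 52.3) fell within 200 bp. Of the 285 summits 197 were upstream of the nearest such gene, 71 inside it and 17 past its 3′ end, so 88 lay at the 5′ end or downstream of it, against 194 of 2410 (8.05%) in coding windows. The nearest noncoding gene had a median length of 142 bp, so a summit within 200 bp downstream can lie beyond it. Signal was highest close to the start: the median was 152.2 for the 58 summits from 100 to 1 bp upstream, 122.9 for the 66 from 300 to over 100 bp upstream, 112.7 for the 53 from 0 to 100 bp downstream and 89.0 for the 48 from 1000 to 601 bp upstream. The distances are those inside the window of the rule, and summits in the window of a coding 5′ end were left out by it. A single noncoding gene was in reach of 209 of the 285. Where several were in reach the distance is the smallest of them, which draws it towards the 5′ end. The number of coding genes in reach was not compared, so the distances of the 2410 peaks may not be fully alike.

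**Figure D2:**
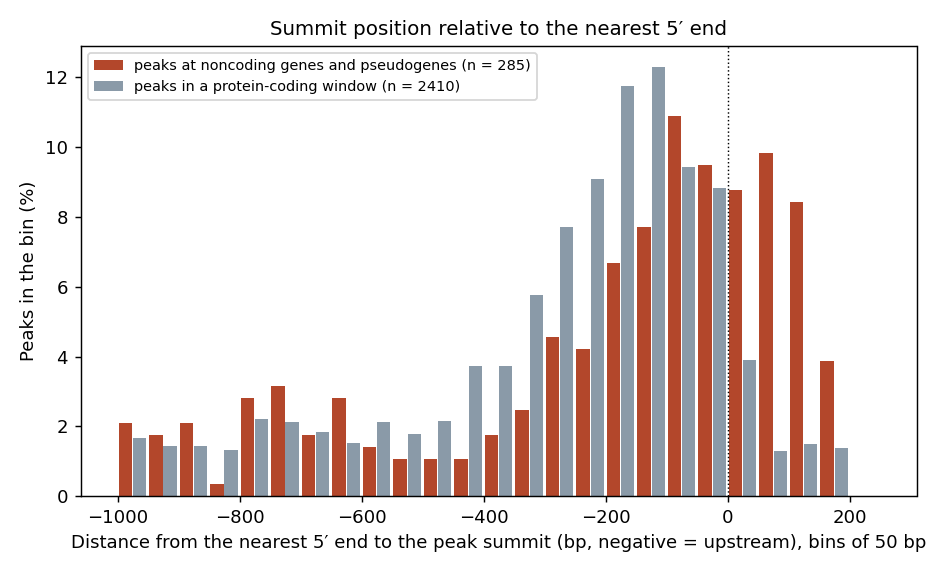
Distance from the nearest 5′ end to the summit in bins of 50 bp, as a percentage of the 285 peaks at noncoding genes and pseudogenes and of the 2410 peaks in a protein-coding window. The first are centred nearer to the 5′ end (median 96 bp upstream) and extend further downstream than the second (median 198 bp upstream).

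By annotation at the summit, 47.0% of the 285 were intergenic, against 63.0% of the rest. A further 24.9% lay in an intron of a coding gene (22.4% of the rest), 23.5% in a noncoding gene (5.22% of the rest), 3.86% in an untranslated exon (5.67%) and 0.702% in a coding exon (3.72%). The larger share in noncoding genes follows from the position the peaks were chosen by. Inside the body of a coding gene lay 84 peaks (29.5%, interval 24.2 to 35.1), against 31.8% (30.3 to 33.3) of the rest together. Within the rest the share was 27.7% (26.0 to 29.4) in protein-coding or small RNA windows and 42.3% (39.3 to 45.3) in no window. The share of the 285 was thus close to the first and below the second. The nearest noncoding gene was on the strand of the coding host in 39 of the 84 and on the opposite strand in 45, with no preference beyond counting error (46.4% on the same strand, interval 35.5 to 57.6). The median signal was 111.7 inside coding genes and 113.1 outside them. The nearest coding 5′ end was a median of 2410 bp away, and within 2000 bp for 121 of the 285 (42.5%).

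The GA repeat was the most frequent of the motifs searched at the summits. GAGAGA occurred, on either strand, within 50 bp of 92 of 285 summits (32.3%, interval 26.9 to 38.0), against 22.6% (21.2 to 23.9) of the rest of the optimal list. The intervals overlapped without replicate 2, with 27.2% (21.9 to 33.0) against 21.8% (20.5 to 23.2), and when peaks shared with coding windows were kept, with 24.1% (21.3 to 27.2) against 23.0% (21.6 to 24.5). Of the peaks in protein-coding or small RNA windows 20.1% (18.6 to 21.6) held it and of the peaks in no window 28.2% (25.6 to 31.0), so the share differed from that in coding windows beyond counting error and not from that away from all windows. In equally wide windows 300 bp to each side GAGAGA was found in 10.9% around the 285 and in 5.95% around the rest. It was held by 39.6% (32.5 to 47.0) of the 187 summits within 200 bp of a noncoding 5′ end and by 18.4% (11.3 to 27.5) of the 98 further away.

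**Figure D3:**
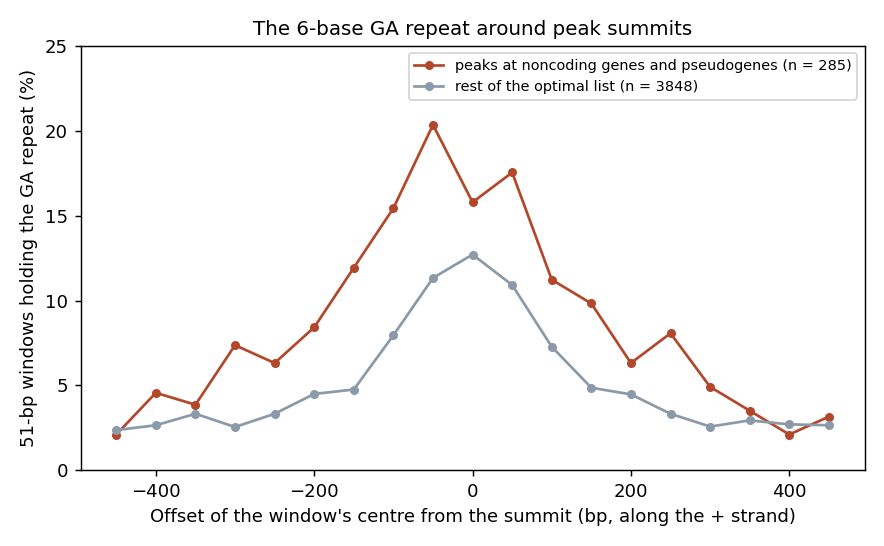
Share of 51-bp windows that hold the 6-base GA repeat, by offset of the window from the summit, for the 285 peaks and for the rest of the optimal list. The 285 are higher from 300 bp on one side to 300 bp on the other. At the summit itself they stand at 15.8% against 12.7% in the rest, and at 50 bp on its left at 20.4% against 11.3%. Both sets come down to 2 to 3% at 450 bp.

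The shares of the E-box, the EOR-1 motif and TGATAA had intervals that overlap those of the rest of the list. The E-box CACGTG was in 24 windows (8.42%, interval 5.47 to 12.3), against 8.11% (7.26 to 9.02) of the rest, with 1.58% and 1.98% in the flanks. GAGACGCAG was in 20 (7.02%, interval 4.34 to 10.6), against 7.28% (6.48 to 8.14) of the rest, with 1.40% and 0.390% in the flanks, and 11 of the 20 also held the GA repeat. TGATAA was in 40 (14.0%, interval 10.2 to 18.6), against 12.2% (11.2 to 13.3) of the rest, with 7.19% and 10.2% in the flanks. In contrast to the GA repeat, TGATAA was held by 9.09% (5.39 to 14.2) of the summits within 200 bp of a noncoding 5′ end and by 23.5% (15.5 to 33.1) of those further away. Of the peaks in protein-coding or small RNA windows 9.59% (8.51 to 10.8) held TGATAA, and of those in no window 18.4% (16.1 to 20.8). A lower share nearer to 5′ ends was thus not particular to noncoding genes.

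The nuclear receptor half-site AGGTCA was in 12 windows (4.21%, interval 2.19 to 7.24), as in 4.21% of the rest, and its flanks held it in 3.68%. One of the 12 was the window of nhr-151. GTAAACA was in 5 (1.75%, against 2.62% of the rest), TGACTCA in 7 (2.46%, interval 0.993 to 4.99, against 0.780% of the rest, interval 0.527 to 1.11), TATAAA in 12 (4.21%, against 6.44%) and CCAAT in 46 (16.1%, against 16.6%). The A box of tRNA genes, by its usual consensus, was in 2 windows, one of them that of the weaker rncs-1 peak, and the B box in none. At least one of the GA repeat, the EOR-1 motif, the E-box and the TGATAA site was in 156 of the 285 windows (54.7%).

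**Figure D4:**
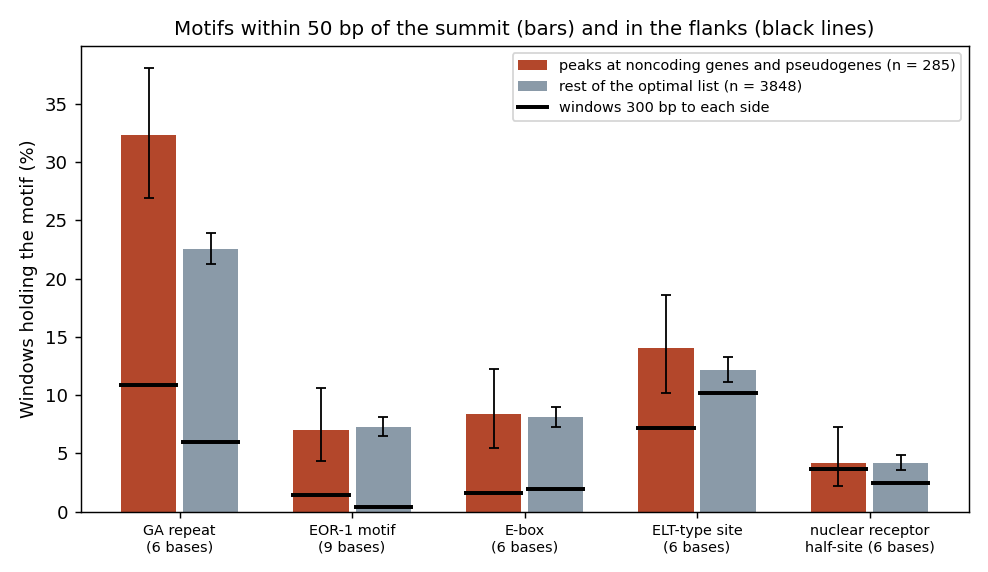
Share of windows within 50 bp of the summit that hold each of 5 motifs, for the 285 peaks and for the rest of the optimal list, with exact 95% intervals as error bars. Black lines give the share in equally wide windows 300 bp to each side. The GA repeat stands at 32.3% against 22.6%, and the other 4 motifs have overlapping intervals.

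The X chromosome carried 86 of the 285 peaks (30.2%, interval 24.9 to 35.9), against 20.6% (19.3 to 21.9) of the rest of the optimal list. This share was close to that of the genes the peaks were chosen by, since 26.9% of the 10467 genes of the 6 biotypes, and 32.5% of the ncRNA genes, are on X. It was also close to that of the candidates: 27.2% (25.4 to 29.1) of the 2220 pooled candidates under the same rule were on X. Of these candidates 14.2% (11.5 to 17.3) were optimal on X and 12.3% (10.8 to 14.0) on the autosomes, and 3.57% of ncRNA genes on X had a peak of this kind, against 3.79% of those on the autosomes. The share on X thus differed from that of the annotated genes by less than counting error. Pseudogenes, of which 8.36% are on X, had 3 of their 26 peaks there.

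**Figure D5:**
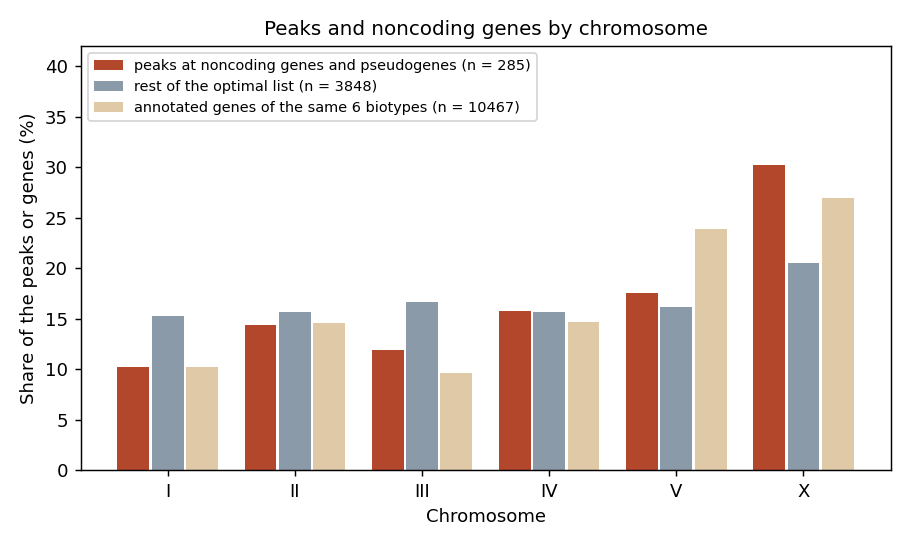
Share of the peaks on each chromosome for the 285 peaks and the rest of the optimal list, beside the share of the 10467 annotated genes of the same 6 biotypes. X holds 30.2% of the 285 and 20.6% of the rest, and 26.9% of the genes.

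The EOR-1 motif was distributed unevenly between X and the autosomes. GAGACGCAG was at 0 of 86 summits on X, which allows up to 4.199% (upper limit of the interval), and at 20 of 199 on the autosomes (10.1%, interval 6.25 to 15.1). In the rest of the list it was at 4.05% (2.78 to 5.66) on X and at 8.11% (7.17 to 9.14) on the autosomes, the same direction. GAGAGA was at 20.9% (12.9 to 31.0) of the summits on X and at 37.2% (30.5 to 44.3) on the autosomes, intervals that just overlap, while in the rest the shares were 20.4% on X and 23.1% on the autosomes. Both windows with GCGCAGGG were on X, as were 15 of the 16 in the rest of the list. The median signal was 108.0 on X and 114.5 on the autosomes.

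The optimal list was itself thresholded on reproducibility, so the agreement of the replicates is given as a description. That threshold left the 4133 strongest pooled candidates, so being in the list does not show that a given peak agreed between replicates. The replicates agreed on most of the 285 peaks, though on fewer than in the rest of the list. A candidate overlapped 285 of them in replicate 1 and 284 in replicate 2, and the exception was a weak peak at F13H6.11 (72.4). The candidate lists reach into background, so such an overlap says little, and 99.7% of the rest had it in both replicates. One of the 4133 strongest candidates of both replicates overlapped 205 (71.9%, interval 66.3 to 77.1), against 79.2% (77.9 to 80.5) of the rest and 73.5% (70.8 to 76.2) of the peaks in no window. Replicate 1 alone gave 226 and replicate 2 alone 258. Spearman's rho of the replicate signals was 0.77 over the 284 matched peaks and 0.80 over the 3837 matched peaks of the rest, as a description across peaks that share libraries. The ranks lay within a factor of 2 of each other for 84.9% of the 284, against 87.5%.

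Where the replicates ranked a peak most differently it was mostly weak. Those favoured by replicate 1 were F55A8.6 (chrIV:1901036-1901435, rank 2053 in replicate 1 and 9317 in replicate 2), C05D2.13 (chrIII:5621160-5621559, 2719 and 12021) and C10G8.9 (chrV:5329768-5330167, 906 and 2838), with signals of 90.9, 70.1 and 163.0 in the optimal list. Those favoured by replicate 2 were mir-5547 (chrII:12237545-12237944, 26661 in replicate 1 and 2189 in replicate 2), T04C12.14 (chrV:11076327-11076726, 7812 and 1911) and T20B12.12 (chrIII:7387336-7387735, 10910 and 3067), with signals of 70.6, 90.2 and 75.1. The mir-5547 peak thus rests on replicate 2, since replicate 1 gave it a signal of 10.2 against 59.6.

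At the edge of the positional rule, the farthest peaks inside the window were those of R160.11 (999 bp upstream, 308.5, with 151.9 in replicate 1 and 154.2 in replicate 2) and Y82E9BR.30 (998 bp upstream, 284.7, with 136.2 and 138.4). Just outside it were 5 peaks from 1006 to 1016 bp upstream, of T01G1.t2 (70.5), F32H2.13 (120.8), mir-238 (106.5), ZK470.11 (83.9) and F13D11.22 (82.7). The weakest peaks inside the optimal list, at K03C7.4, F46A8.1 and Y76A2B.9, had signals from 69.5 to 69.9, and the first candidates under the same rule below it, at F58D5.13, K11D5.2 and C46C11.5, from 69.0 to 69.3.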

How the data were processed

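ChIP-seq peaks of NHR-90-GFP in L1 larvae were read from the narrowPeak lists the authors deposited for ce11. Candidates were called per replicate and on both replicates pooled, each with a control, and the optimal list was thresholded on the irreproducible discovery rate, per the deposited file listings. The authors' signal value was used as deposited, with no scale stated. Which aligner and peak caller made the lists is not given in the sources used here, and depth is unknown. A candidate list that reaches into background sets which weak sites can be matched.

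The annotation was Ensembl release 115, and gene names and sequence came from RefSeq, both on WBcel235, with names for 10466 of 10467 genes. Peaks were matched between lists by the strongest overlapping candidate (1 bp or more). Motifs were sought on both strands within 50 bp of the summit, allowing overlaps between motifs. Replicates form 1 group, so no test between groups was possible, and shares carry exact 95% binomial intervals (SciPy 1.17.1). The assignment of summits to windows was checked on simulated positions. The genes named are those of the 20 strongest peaks, the strongest per biotype and gene list, the extremes of replicate rank and the edges of the window; other microRNAs and the windows chosen for a motif were picked after their values were seen. The members and gene lists were chosen with earlier results of these data known. The lists on the other build were not used. One group of microRNAs is not reported here.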

Additional observations from a re-analysis of the deposited data

How the results depend on the processing

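With 500 bp upstream 285 peaks qualified (230 of them shared), with 2000 bp 307 (209 shared), among the 2066 strongest optimal peaks 123, with no exclusion of coding windows 837, and by the nearest 5′ end alone 587 (277 shared). Among those 2066 the median signal was 189.6, GAGAGA was at 40.7%, CACGTG at 13.0% and TGATAA at 6.50%, and 5.54% of candidates counted as called. With no exclusion GAGAGA was at 24.1%, GAGACGCAG at 4.18%, TGATAA at 10.2% and pseudogenes at 5.50%. Within 25 bp of the summit GAGAGA was at 15.8% and TGATAA at 7.37%, and within 100 bp GAGAGA was at 49.5%, TGATAA at 22.8% and CACGTG at 13.7%. With 500 bp upstream TGATAA was at 9.82%. The share of noncoding genes bound was 8.12% with 500 bp and 12.3% with 2000 bp. Overlap with the strongest candidates of both replicates was 65.6% with summits within 100 bp and 97.9% with double the number of candidates.

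With 1 replicate left out, the number of peaks was 261 to 300, the overlap 79.3 to 90.5% and the share of candidates called 12.6 to 14.9%. The last 2, the share on X with 1 peak per locus (30.4%) and GAGAGA in the rest under each alternative were added after seeing the data. No median signal was set across replicate lists, whose scales differ. In all, 151 alternative values were computed for 20 results. Except for GAGAGA, the rest of the list was not recomputed under them. GAGAGA was at 28.7% (23.6 to 34.1) without replicate 1, against 21.7% (20.4 to 23.0) of the rest of that list, and at 27.2% (21.9 to 33.0) without replicate 2, against 21.8% (20.5 to 23.2). By the nearest 5′ end it was at 26.9% (23.4 to 30.7), against 22.6% (21.2 to 24.0), an overlap of intervals too. Unknown depth limits what can be said of weak peaks, and the lack of a comparison with an untagged strain limits what can be said of any.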
